A study of Mus musculus with 36 samples.

Results

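The 10 genes described here belong to the machinery that presents peptides on major histocompatibility complex (MHC) class II and were chosen by symbol alone. They were read in whole kidneys of young mice. The set holds the class II chains H2-Aa, H2-Ab1 and H2-Eb1, the invariant chain Cd74 and the transactivator Ciita. It also holds the peptide exchange factors H2-DMa, H2-DMb1 and H2-DMb2 and their inhibitors H2-Oa and H2-Ob. The deposited table lists 9 of the 10 among 18049 genes, and H2-Ob was not analysed here. In kidneys that carried both mutations of the study, 8 of these 9 genes rose 2.94-fold to 35.3-fold above wild type at postnatal day 12 (P12). At P3, 2 of the 3 kidneys with both mutations held these 8 genes at 3.08 to 31.4 times the wild-type mean while the other one stood near wild type, and at P0 and in either single mutant none of the 9 passed the test.

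The study sequenced RNA of whole kidneys of C57BL/6 mice, taken at P0, P3 and P12, for 4 genotypes with 3 libraries each, 36 libraries in 12 groups. The genotypes were wild type (WT), Pkd1-RC/RC (homozygous for the RC allele of Pkd1, the gene of autosomal dominant polycystic kidney disease), Pkhd1-/- (homozygous for a mutant Pkhd1, the gene of the autosomal recessive form) and digenic (Pkhd1-/-;Pkd1RC/RC, both together). The labels name no Cre, promoter or treatment, and all groups share the strain and the tissue. The column headers give each library a number and a sex, and the labels do not say more on whether replicates are separate animals, so the p-values measure the spread between these libraries.

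MHC class II molecules are pairs of an alpha and a beta chain that show peptides from engulfed material to CD4+ T cells. The invariant chain fills the groove of new class II molecules and guides them to the endosome, where proteases such as cathepsin S cut it down to a short stub, H2-DM exchanges the stub for peptides, and H2-O restrains H2-DM. Dendritic cells, macrophages and B cells make class II all the time, while many other cells, kidney tubule cells among them, can do so under interferon gamma, which switches on CIITA.

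Library totals ranged from 51411240 to 80789299 counts, so that Cd74 was counted 474 to 149634 times per library, Ciita 31 to 3156 times and H2-Oa 4 to 55 times. Levels are given as CPM, the count of a gene scaled to a fixed library total, with totals scaled by the trimmed mean of M values (TMM) over the 36 libraries. The targeted gene Pkhd1 stood at 9.55 to 11.1 CPM in P0 digenic kidneys against 65.1 to 79.6 CPM in wild type, and at P12 at 18.8 to 32.8 CPM against 178 to 249.5 CPM. The RC allele is a point mutation, so Pkd1 counts do not check the genotype. In 2 libraries the column header disagrees with the label. The header of P12 digenic replicate 1 names P3. Its group by label held the kidney marker Umod at 1099 to 1166 CPM, against 434 to 629 CPM in P3 digenic kidneys. The header of P12 Pkd1-RC/RC replicate 2 names Pkhd1, although its group held Pkhd1 at 216 to 233 CPM. Transcripts of the neighbouring adrenal gland, summed over a marker list, reached at least 60 CPM (before TMM scaling) in 8 libraries, among them P3 digenic replicate 3 (473 CPM) and P12 digenic replicates 2 (98.4 CPM) and 3 (134 CPM). Several results that rest on these libraries are also given without them, and the others are given for all libraries only.

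The 7 H2 genes listed lie together on chromosome 17 (mm10, positions 34092340 to 34316674 in the GENCODE M21 annotation), in the order H2-Oa, H2-DMa, H2-DMb2, H2-DMb1, H2-Ab1, H2-Aa and H2-Eb1. This is the chromosome of Pkd1, whose end lies 9.5 Mb from the start of H2-Oa and 9.71 Mb from that of H2-Eb1. H2-Ab1 spans 34257689 to 34269419 and H2-Aa, on the minus strand, 34282744 to 34287823. Ciita lies on chromosome 16 (10480059 to 10528418), and Cd74 on another chromosome, given with its values. The 9 are protein-coding genes and each value is a count over the whole gene. Ciita overlaps Dexi and H2-DMa overlaps Brd2, each on the opposite strand, and Cd74 contains the microRNA gene Mir5107, on its own strand. The sources used here do not say whether the counting used strand, so reads of such overlapping genes cannot be told apart.

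The stretch just upstream of class II genes holds a conserved pair of elements, the X box, which the RFX complex binds, and the Y box, which NF-Y binds, and CIITA joins the factors assembled there. Shown are bases 130 to 39 before the RefSeq start (GRCm38.p6, the mm10 assembly) of 2 chain genes that rose in digenic kidneys and of H2-Oa, the member that did not; capitals mark matches to TGATTGG (Y box) or to an X box core, AAC and TGATG with any 3 bases between them or AAC and TGACG with any 2, letters picked after these promoters were read.
H2-Aa, chr17:34287862-34287953, minus strand: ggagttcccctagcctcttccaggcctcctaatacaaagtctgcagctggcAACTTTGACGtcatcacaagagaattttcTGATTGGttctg
H2-Eb1, chr17:34305737-34305828, plus strand: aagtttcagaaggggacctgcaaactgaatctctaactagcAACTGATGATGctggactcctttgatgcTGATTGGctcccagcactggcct
H2-Oa, chr17:34092249-34092340, plus strand: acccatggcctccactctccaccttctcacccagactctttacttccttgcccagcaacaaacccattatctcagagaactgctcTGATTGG
In H2-Aa the X and Y matches stand 19 bases apart and in H2-Eb1 17 bases apart. The H2-Oa window holds the Y match but neither X core. H2-DMb1 and H2-DMb2 also held both, each with 18 bases between them, although the RefSeq start of H2-DMb2 lies 1942 bases inside the gene as the table places it. Searched on both strands, the Y match occurred in 7.22% of the 250-base windows before 32817 RefSeq starts, the X cores in 0.539% (the TGATG form) and 0.241% (the TGACG form), and an X core together with a Y match in 0.0609%. Those windows belong to 18 gene symbols, 5 of them in the set of 10. Because the letters were picked after these promoters were read, members among the matches test nothing. H2-Ab1 and Ciita had no RefSeq start in the source used and were not searched. H2-DMa, which rose, had no match in either of its windows, whose starts lie 12350 and 9664 bases from that of the gene as deposited. Of the 13 symbols outside the set, 7 were tested, and in P12 digenic kidneys their log2 changes ran from −0.56 to 0.33, with 1 called higher and 1 lower. A match describes letters and is not a measured site.

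In wild-type kidneys the order of levels per kb of gene length at P12 was Cd74 (34.9 ± 11.4 CPM per kb, SD, n = 3), H2-DMb1 (18.3 ± 2.92), H2-Ab1 (17.7 ± 3.62), H2-Eb1 (17.7 ± 4.22), H2-Aa (9.12 ± 3.16), H2-DMa (5.95 ± 1.40), H2-DMb2 (1.57 ± 0.26), Ciita (0.41 ± 0.16) and H2-Oa (0.29 ± 0.071). H2-DMb1, H2-Ab1 and H2-Eb1 did not differ beyond their spread, nor did Ciita and H2-Oa. At P0 the order was different, with H2-Ab1 (17.5 ± 1.53 CPM per kb) above Cd74 (9.53 ± 2.11) and H2-Eb1 (8.92 ± 0.86), and H2-Aa at 2.56 ± 0.63.

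With age in wild type, 3 of the 9 genes rose and 1 fell from P0 to P12, where 26.2% of the 18049 genes tested rose and 23.6% fell (edgeR's quasi-likelihood test, adjusted p under 0.05). Cd74 stood at 14.4, 15.8 and 10.1 CPM in the P0 kidneys, at 13.8, 18.8 and 21.2 CPM at P3 and at 35.6, 66.9 and 45.1 CPM at P12. All P12 kidneys were above all younger ones, and the rise from P0 was 3.66-fold (log2 1.87 ± 0.63, SE, adjusted p = 0.0166). H2-Aa rose 3.56-fold (log2 1.83 ± 0.68, adjusted p = 0.0278) and H2-DMb1 2.59-fold (log2 1.38 ± 0.32, adjusted p = 7.0e-04). H2-DMb2 fell by 1.96 on the log2 scale (SE 0.46, adjusted p = 9.0e-04). H2-Eb1 (log2 0.99 ± 0.57, adjusted p = 0.157), Ciita (1.04 ± 0.72, adjusted p = 0.242) and H2-Ab1 (0.018 ± 0.50, adjusted p = 0.981) did not pass. The count was 2 without P0 replicate 3 or without P12 replicate 2, in place of 4. From P0 to P3 none of the 9 was called (24.7% of genes were, 1 of the 9 had an unadjusted p under 0.05 beside 6721 of all genes, and DESeq2 called none), and from P3 to P12 H2-DMb1 rose (log2 0.86 ± 0.31, adjusted p = 0.0325, beside 18.6% of genes) and H2-DMb2 fell (−1.57 ± 0.46, adjusted p = 0.0083, beside 17% of genes). H2-DMb1 lost that call without P3 replicate 1 or 2 or P12 replicate 1 or 2.

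**Figure D1:**
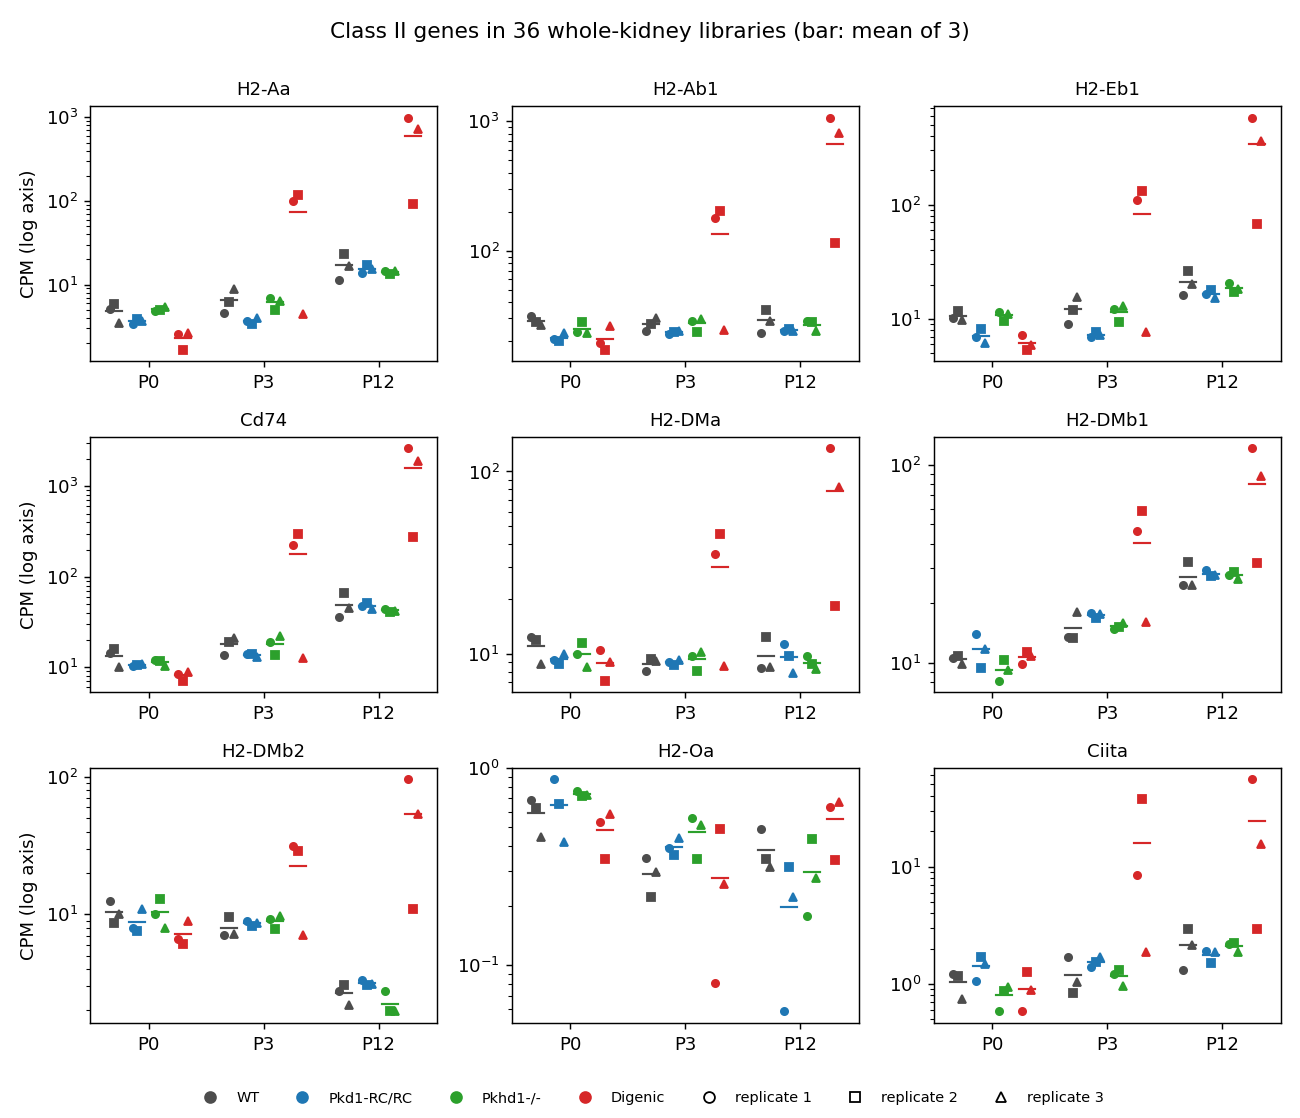
Level of each of the 9 genes in every library (CPM, logarithmic axis) by age, with colours for genotype, symbols for replicate and bars for the mean of 3. Digenic replicates 1 and 2 at P3 and all 3 at P12 stand above the other genotypes for Cd74 and the 3 chains, digenic replicate 3 at P3 does not, and H2-Oa shows no such separation.

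At P0 the class II genes were not raised in digenic kidneys. None of the 9 passed the test against wild type, where 0.671% of 18035 genes were called, although 5 of the 9 had an unadjusted p under 0.05 (2950 of all genes did) and DESeq2 called 3, all lower (704 of all genes, in either direction). H2-Aa stood at 2.59, 1.67 and 2.68 CPM in digenic kidneys against 5.12, 5.79 and 3.49 CPM in wild type. The digenic values lay below all wild-type ones, with a log2 change of −1.05 ± 0.24 that missed the threshold (adjusted p = 0.0666). H2-Eb1 gave −0.77 ± 0.18 (adjusted p = 0.0716), Cd74 −0.72 ± 0.18 (adjusted p = 0.0889) and H2-Ab1 −0.45 ± 0.16 (adjusted p = 0.214). These 4 genes lay below wild type without overlap, as did 11.8% of all genes tested, H2-Aa and Cd74 also below all 9 libraries of the other genotypes (1.37% of genes), and Ciita overlapped (log2 −0.19 ± 0.35). With the sex of the mouse as a term 2 of the 9 were called lower. The list of 21 interferon gamma response genes had a median log2 change of −0.62 with none called, and its summed level was 189 to 204 CPM in digenic against 274 to 287 CPM in wild-type kidneys. The low sum was not particular to digenic kidneys, at 202 to 218 CPM in Pkhd1-/- and 191.5 to 321 CPM in Pkd1-RC/RC kidneys of that age. The part of this list in the lower class II values was not tested.

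At P3 the 3 digenic kidneys fell into very unequal levels. Cd74 stood at 227, 294 and 12.6 CPM in digenic replicates 1, 2 and 3, against 13.8, 18.8 and 21.2 CPM in wild type. Replicates 1 and 2 were 12.7 and 16.4 times the wild-type mean, while replicate 3 lay below every wild-type kidney. H2-Aa followed with 100.2, 116.5 and 4.42 CPM against 4.61, 6.18 and 8.78 CPM. The other chains H2-Ab1 (178, 202 and 24.3 CPM against 24.2 to 30.04 CPM) and H2-Eb1 (110.3, 130.4 and 7.67 CPM against 9.12 to 15.5 CPM) showed the same split.

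The peptide exchange genes showed it on a smaller scale at P3. H2-DMa was counted at 35.4, 45.6 and 8.63 CPM against 8.05 to 9.37 CPM in wild type, H2-DMb1 at 46.2, 58.2 and 16.1 CPM against 13.4 to 18.0 CPM, and H2-DMb2 at 31.5, 28.9 and 7.11 CPM against 7.07 to 9.59 CPM. H2-Oa, the inhibitor chain, was at 0.081, 0.49 and 0.26 CPM against 0.22 to 0.35 CPM. The transactivator Ciita was the one gene of the 9 whose 3 digenic kidneys all lay above wild type at P3, at 8.54, 37.5 and 1.86 CPM against 1.71, 0.84 and 1.04 CPM, with replicate 3 only just above the highest wild-type value. Such separation upward from wild type was seen in 9.82% of all genes, and from all 9 libraries of the other genotypes, which Ciita also showed, in 3.88%.

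Over the 3 digenic kidneys the P3 log2 changes were 3.30 ± 0.88 for Cd74, 3.48 ± 0.92 for H2-Aa, 2.30 ± 0.60 for H2-Ab1, 2.75 ± 0.79 for H2-Eb1 and 3.73 ± 0.88 for Ciita, and their adjusted p-values of 0.0585 to 0.121 missed the threshold. H2-DMb1 alone was called (log2 1.41 ± 0.33, adjusted p = 0.0470), 1 of 9 where 2.09% of 18043 genes were called higher. The median over the 9 was 2.30, beside −0.011 over all genes tested. Without digenic replicate 3, which is also the digenic library with adrenal transcripts, 8 of the 9 were called and Cd74 gave 3.85, whereas leaving out any of the other 5 libraries left none called. DESeq2 called 8 and the fit of only these 6 libraries called none. All 3 digenic mice at P3 were female by their headers and 1 of the 3 wild-type mice was, and with sex as a term none was called, so that sex and genotype overlap in part at this age.

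At P12 all 3 digenic kidneys held Cd74 and the 3 chains above all wild-type kidneys, again at unequal levels, while in digenic replicate 2 H2-DMb1, H2-Oa and Ciita lay within or at the edge of the wild-type range. Cd74 stood at 2628, 273 and 1928 CPM in digenic replicates 1, 2 and 3, against 35.6, 66.9 and 45.1 CPM in wild type. Cd74 lies on chromosome 18 (60803848 to 60812652, mm10). All digenic kidneys were above all wild-type ones, with replicate 2 far below the other two. The change was 32.7-fold (log2 5.03 ± 0.74, adjusted p = 0.0019), the mean digenic level was 1610 ± 1209 CPM (SD, n = 3), and the highest digenic kidney was 9.63 times the lowest. In bulk RNA, more cells that make class II and more class II RNA per cell cannot be told apart.

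The 3 chains moved in the same way. H2-Aa stood at 993, 92.5 and 724 CPM against 11.4, 23.3 and 16.6 CPM in wild type, a 35.3-fold change (log2 5.14 ± 0.78, adjusted p = 0.0023). Its partner H2-Ab1 stood at 1068, 115 and 815 CPM against 23.2, 35.1 and 28.8 CPM, a 22.9-fold change (log2 4.52 ± 0.70, adjusted p = 0.0025). H2-Eb1, the beta chain of the I-E molecule, whose alpha chain gene H2-Ea is not functional in C57BL/6 mice, stood at 578, 67.4 and 363 CPM against 16.4, 26.3 and 20.3 CPM, a 16.0-fold change (log2 4.0 ± 0.66, adjusted p = 0.0033). In each of the 3, digenic replicate 2 was the lowest digenic kidney and still above all wild-type kidneys.

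Among the exchange genes H2-DMa stood at 133.8, 18.5 and 82.0 CPM against 8.39, 12.4 and 8.46 CPM (8.0-fold, log2 3.00 ± 0.58, adjusted p = 0.0067). H2-DMb2 stood at 96.3, 11.0 and 53.6 CPM against 2.77, 3.09 and 2.20 CPM (20.0-fold, log2 4.32 ± 0.66, adjusted p = 0.0019). H2-DMb1 rose 2.94-fold (log2 1.55 ± 0.37, adjusted p = 0.0149), from 24.7, 32.2 and 24.6 CPM to 120.5, 31.8 and 87.4 CPM, so that digenic replicate 2 overlapped wild type. The inhibitor chain H2-Oa did not pass (log2 0.51 ± 0.47, adjusted p = 0.475), at 0.63, 0.34 and 0.67 CPM against 0.49, 0.35 and 0.32 CPM. Ciita rose 11.5-fold (log2 3.53 ± 0.86, adjusted p = 0.0179), at 55.4, 2.96 and 15.6 CPM against 1.31, 2.96 and 2.15 CPM. Its lowest digenic kidney, replicate 2, equalled the highest wild-type one to 3 digits.

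In all, 8 of 9 were called higher at P12 where 12% of 18002 genes were, and their median was 4.0 beside −0.011 over all genes tested. The libraries did not overlap for 7 of the 9, Ciita by its equal values counted among them, where 17.7% of all genes lay wholly above wild type. The same 7 lay above all 9 libraries of the other genotypes, as 11.2% of genes did. Without the library whose header names P3, P12 digenic replicate 1 (left out together with the other mislabelled header), 8 were called, with Cd74 at a log2 change of 4.48 and Ciita at 2.12. With digenic replicate 1 alone, the 2 digenic libraries with adrenal transcripts left out, 8 were also called and Cd74 gave 5.76, with the lone library assumed to vary like the other groups. The fit of only the 6 libraries compared called 4, Cd74, H2-Aa, H2-Ab1 and H2-DMb2, and H2-DMb1 and Ciita lost the call without wild-type replicate 1 or 3.

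**Figure D2:**
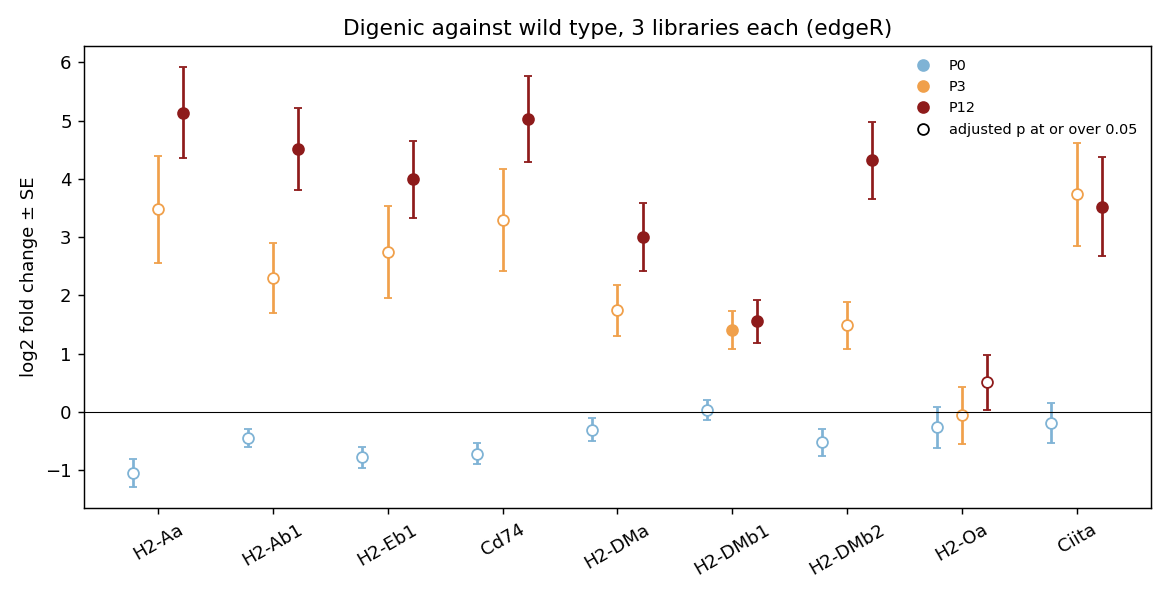
Log2 fold change of digenic against wild-type kidneys for each gene at P0, P3 and P12 (points, bars are SE, 3 libraries per group, edgeR), with open points where the adjusted p was at or over 0.05. Values lie at or below 0.042 at P0, and 8 genes are called at P12.

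Neither single mutation moved these genes past the test. Against wild type, none of the 9 was called in Pkd1-RC/RC kidneys at P0 (0.0166% of genes called), P3 (0.0443%) or P12 (0.267%), nor in Pkhd1-/- kidneys at P0 (0.0111%), P3 (0.0166%) or P12 (0.0333%), and DESeq2 called none. At an unadjusted p under 0.05 there were 2 of 9 in Pkd1-RC/RC kidneys at P0, where 1880 of 18035 genes were, and none in the other 5 comparisons. Both were lower, as in digenic kidneys of that age: H2-Eb1 (log2 −0.58 ± 0.18, edgeR adjusted p = 0.422) and H2-Ab1 (−0.43 ± 0.16, adjusted p = 0.440). At P12 Cd74 stood at 47.5, 50.9 and 44.5 CPM in Pkd1-RC/RC kidneys and at 43.9, 41.3 and 41.9 CPM in Pkhd1-/- kidneys, within the wild-type range. Across the 27 libraries of these genotypes and wild type, Ciita ranged from 0.59 to 2.96 CPM and Cd74 from 10.1 to 66.9 CPM.

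Digenic kidneys at P12 were also above either single mutant. Of the 9 genes, 8 were called against Pkd1-RC/RC (10.3% of genes were called higher) and 8 against Pkhd1-/- (15.5%), comparisons that share the digenic libraries. H2-Aa gave 5.29 ± 0.79 against Pkd1-RC/RC and 5.40 ± 0.80 against Pkhd1-/- on the log2 scale. At P3 none was called against Pkd1-RC/RC (0.46% of genes were called, 8 of the 9 had an unadjusted p under 0.05 beside 1875 of all genes, DESeq2 called 6 beside 525) and H2-DMb1 was called against Pkhd1-/- (log2 1.37 ± 0.33, adjusted p = 0.0450, beside 2.65% of genes). Without P3 digenic replicate 3 both counts were 8, and without any of the 5 other libraries of the second comparison its count was 0. By their headers all P3 Pkd1-RC/RC mice were male and all P3 digenic mice female. Sex and genotype thus overlapped fully in the P3 comparison with Pkd1-RC/RC, and the P3 interaction also holds both groups. At P0 none was called against Pkd1-RC/RC (0.0388% of genes called) or Pkhd1-/- (0.244%), with 1 and 4 of 9 at an unadjusted p under 0.05 (909 and 2688 of all genes), and DESeq2 called none and 2 (64 and 520 of all genes).

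The interaction asks whether digenic kidneys differ from the sum of both single effects on the log2 scale. At P12, 6 of the 9 were called (5.38% of genes were, in that direction): H2-Aa 5.55 ± 1.01 (adjusted p = 0.0164), Cd74 5.29 ± 0.94 (0.0150), H2-Ab1 4.89 ± 0.91 (0.0174), H2-Eb1 4.50 ± 0.88 (0.0201), H2-DMb2 4.34 ± 0.88 (0.0210) and H2-DMa 3.13 ± 0.80 (0.0448). Ciita (3.82 ± 1.18, adjusted p = 0.0777) and H2-DMb1 (1.47 ± 0.52, adjusted p = 0.107) did not pass. The count was 1 without Pkhd1-/- replicate 2, and 3 without Pkhd1-/- replicate 1, Pkhd1-/- replicate 3 or Pkd1-RC/RC replicate 1. At P0 and P3 none was called, where 0.00554% and 0% of all genes were, with 1 and 7 of 9 at an unadjusted p under 0.05 (1067 and 1457 of all genes) and 0 and 1 by DESeq2 (8 and 214 of all genes). Without P3 digenic replicate 3, 8 were called.

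The digenic effect grew from P0 to P12 for 8 of the 9 genes (5.22% of 18049 genes grew), by 6.20 ± 1.01 for H2-Aa, 5.76 ± 0.93 for Cd74 and 4.97 ± 0.75 for H2-Ab1 on the log2 scale (adjusted p = 3.2e-04, 3.0e-04 and 1.4e-04). From P0 to P3 it grew for H2-Aa (4.55 ± 0.99, adjusted p = 0.0290), Cd74 (4.03 ± 0.90, 0.0326) and H2-Eb1 (3.54 ± 0.83, 0.0401), 3 of 9 beside 0.549% of genes. That count was 0 or 1 when any other single library was left out, apart from P0 wild-type replicate 2, and 8 without P3 digenic replicate 3. From P3 to P12 only H2-DMb2 passed (2.82 ± 0.63, adjusted p = 0.0154, beside 1.34% of genes), and it did not pass without P12 digenic replicate 1 or P12 wild-type replicate 3. Ciita's effect changed by −0.21 ± 0.97 between P3 and P12 (adjusted p = 0.962).

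The H2-DM beta chain has a pair of adjacent genes, and their balance differed between ages. H2-DMb2 gave 54.2%, 44.3% and 50.4% of the H2-DMb1 and H2-DMb2 counts in P0 wild-type kidneys, 34.2%, 41.8% and 28.5% at P3, and 10.1%, 8.76% and 8.2% at P12. Over the 9 libraries of wild type and single mutants at each age, the share was 36.2% to 55.4% at P0, 28.5% to 41.8% at P3 and 6.44% to 10.1% at P12, with no overlap between P12 and the earlier ages. In P12 digenic kidneys it was 44.4%, 25.8% and 38.0%, above all 9 of the other genotypes of that age. The 2 genes are close copies, and the sources used here do not say how reads that match both were assigned. Their summed level did not change past the test from P0 to P12 in wild type (log2 0.51, adjusted p = 0.225). The part of read assignment in the fall of H2-DMb2 and the rise of H2-DMb1 with age was not tested.

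The alpha and beta chains of the I-A molecule were unequal at birth and closer later. The ratio of H2-Aa to H2-Ab1 per kb was 0.14, 0.18 and 0.11 in P0 wild-type kidneys and 0.43, 0.58 and 0.50 at P12. Digenic kidneys at P12 had 0.81, 0.70 and 0.78, above all 9 of the other genotypes (0.42 to 0.60). At P3 the ratio was 0.49 and 0.50 in digenic replicates 1 and 2 and 0.16 in replicate 3, which lay within the 0.13 to 0.26 of the other genotypes.

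**Figure D3:**
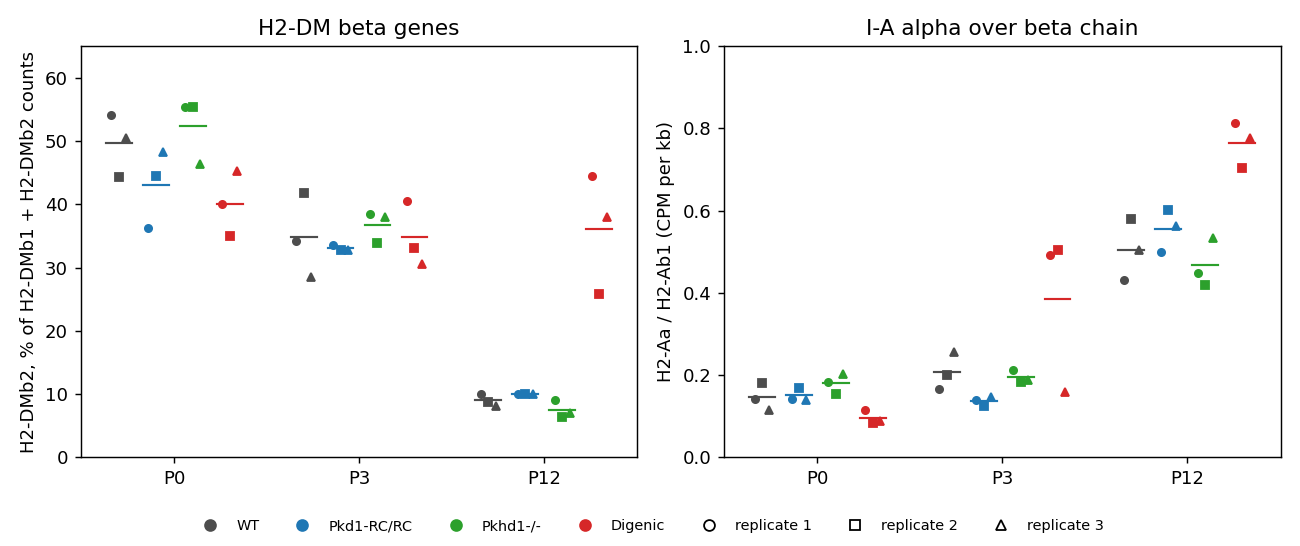
Left, H2-DMb2 as a percentage of the counts of both H2-DM beta genes, and right, the ratio of H2-Aa to H2-Ab1 in CPM per kb, in every library by age (colours are genotypes, symbols replicates, bars means of 3). At P12 the digenic kidneys stand at 25.8% to 44.4% and 0.70 to 0.81, above the other genotypes.

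The digenic kidneys allow class II genes to be read beside Ciita and other lists, library by library, as differences of mean log2 CPM from the wild-type mean of the age. Ciita was highest in P3 replicate 2 (5.0) and P12 replicate 1 (4.75), lower in P12 replicate 3 (2.92) and P3 replicate 1 (2.87), and low in P3 replicate 3 (0.69) and P12 replicate 2 (0.54). The interferon gamma response list of 21 genes came in nearly the same order, at 4.80, 4.17, 2.27, 2.84, 1.03 and 0.57. Cd74 did not keep it: P12 replicate 3 (5.34) stood above P3 replicate 2 (4.06), and P12 replicate 2 stood at 2.52 with Ciita near wild type. In P3 replicate 3 Ciita, the interferon gamma list and the type I interferon list (1.13) were above the wild-type mean while Cd74 (−0.49) and H2-Eb1 (−0.64) were below it.

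**Figure D4:**
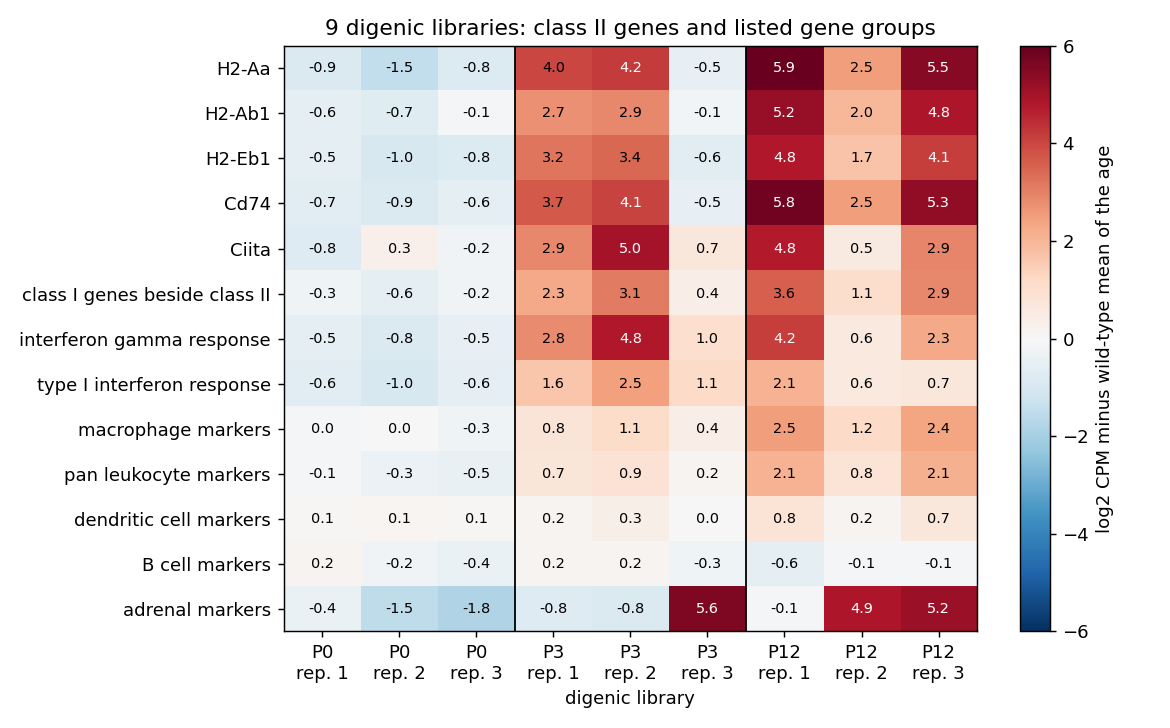
Difference of log2 CPM from the wild-type mean of the same age in each of the 9 digenic libraries, for 5 class II genes and for the mean over 8 gene lists (colour and printed number, log2 units). P3 replicate 3 and P12 replicate 2 are the lowest of their ages for Cd74 and Ciita, and P12 replicate 2 still has Cd74 at 2.52.

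Regulators of the pathway moved in part. At P12, 8 of 17 tested regulators were called higher in digenic kidneys and none lower, 5 without the libraries whose headers differ. Over all genes tested, 12% were called higher at P12 and 2.09% at P3. Nlrc5, the transactivator of MHC class I and a relative of Ciita, rose 15.0-fold (log2 3.91 ± 0.81, adjusted p = 0.0085) and the interferon-induced factor Irf1 3.07-fold (adjusted p = 0.0475), beside the interferon gamma receptor chain Ifngr1 (1.54-fold, adjusted p = 0.0011). Irf1 stood at 144.6, 30.46 and 42.6 CPM in P12 digenic replicates 1, 2 and 3, against 20.0, 30.53 and 20.2 CPM in wild type. Digenic replicate 2 thus overlapped wild type. Rfx5, the DNA-binding subunit of the RFX complex, did not pass (log2 0.071 ± 0.095, adjusted p = 0.636). At P3 Nlrc5 rose 32.1-fold (adjusted p = 0.0215). Nlrc5 stood at 14.3, 41.7 and 2.34 CPM in the P3 digenic kidneys against 0.38, 0.63 and 0.76 CPM in wild type, so all 3 digenic kidneys were above.

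The processing and display list gave 9 higher and 1 lower of 16 tested at P12 (7 and 1 without the libraries whose headers differ) and 2 higher of 16 at P3. Among all genes tested, 12% at P12 and 2.09% at P3 were called higher. Cathepsin S (Ctss), which cuts the invariant chain, rose 8.86-fold at P12 (log2 3.15 ± 0.47, adjusted p = 0.0017), and stood at 129.5, 30.4 and 95.1 CPM against 6.62, 13.5 and 8.70 CPM. The lysosomal proteases Ctsd (2.23-fold, adjusted p = 4.2e-05) and Ctsc (3.43-fold, adjusted p = 3.5e-04) rose, as did Cd4, the T cell co-receptor for class II (5.09-fold, adjusted p = 0.0011). At P3 Ctss rose 1.81-fold and Ctsc 1.65-fold (adjusted p = 0.0334 and 0.0300).

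Class I genes rose with them. All 8 of the class I list were called at P12, among them H2-K1 (16.6-fold, adjusted p = 0.0015), H2-D1 (11.4-fold, adjusted p = 0.0014) and B2m, the light chain of class I (6.88-fold, adjusted p = 0.0037). At P3 B2m and Psmb9 were called, and all 8 were without the libraries with adrenal transcripts. The share of all genes called higher over all libraries was 12% at P12 and 2.09% at P3. The 8 genes outside the set whose log2 CPM followed the mean of Cd74, H2-Aa, H2-Ab1 and H2-Eb1 most closely over the 36 libraries, among 16097 genes compared, were Mir5107 (Pearson r = 0.99), H2-D1 (0.98), H2-K1 (0.98), B2m (0.97), H2-Q4 (0.96), Gm11131 (0.95), H2-T22 (0.95) and Tapbp (0.95). Mir5107 lies inside Cd74 and Gm11131 overlaps H2-Q4 on the opposite strand. The r stayed between 0.88 and 0.98 without the 2 libraries farthest from the median and for deviations from the group means. By rank over the 36 libraries the correlation was lower (Spearman), from 0.70 for H2-Q4 and Gm11131 to 0.92 for Mir5107. These values share libraries and groups and are a description only. Within the set H2-DMb2 followed the same mean less closely (r = 0.56) and H2-Oa did not (r = −0.095).

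Between H2-Oa and H2-Eb1 lie 7 other genes of the table, and this stretch of 224.3 kb rose unevenly in digenic kidneys. At P12, 6 of the 7 were called higher, the class I processing genes Psmb9, Tap1, Psmb8 and Tap2 and the overlapping noncoding genes Gm20496 and Gm15821, with a median log2 change of 2.95. Brd2, a bromodomain gene that overlaps H2-DMa on the opposite strand, gave −0.097 ± 0.10 (adjusted p = 0.549), beside H2-DMa at 3.00. Its midpoint lies between those of H2-Oa and H2-DMa. At P3 the 7 had a median of 3.15 and 2 were called. Of all genes tested, 2.09% were called higher at P3 and 12% at P12. Tap1 gave 3.31 ± 0.73 at P3 and 2.95 ± 0.60 at P12, whereas H2-DMb2 gave 1.49 ± 0.40 and 4.32 ± 0.66. In Pkd1-RC/RC kidneys, which carry the same Pkd1 allele on this chromosome, none of these 7 nor of the 7 H2 genes was called at any age, and the 7 others ranged from −0.41 to 0.21 on the log2 scale.

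**Figure D5:**
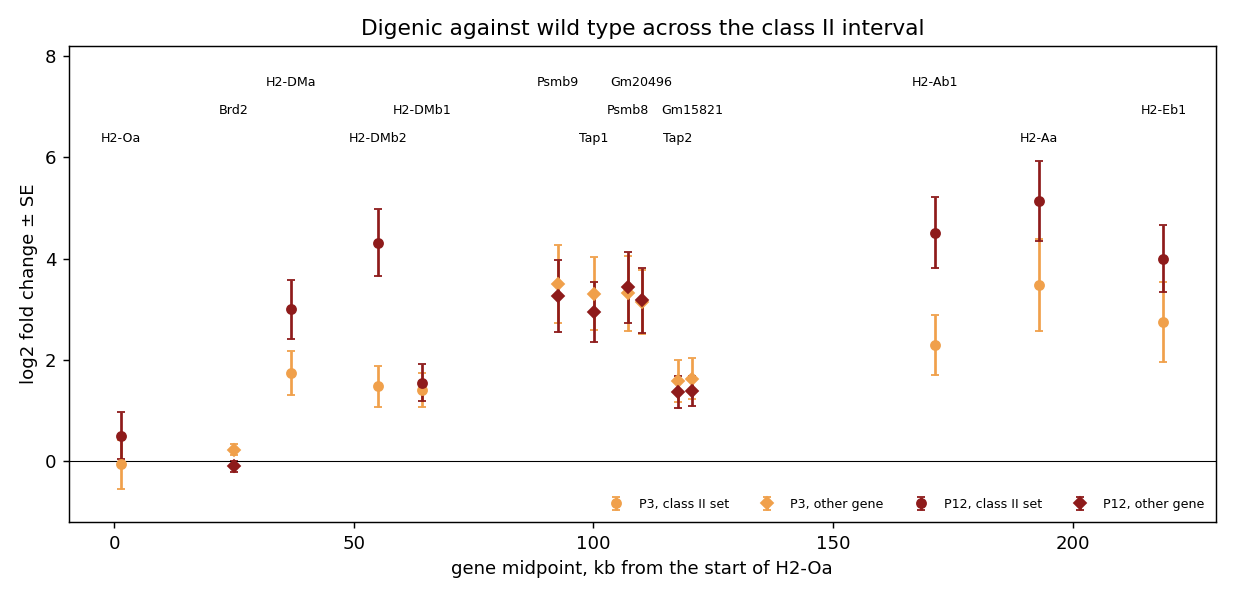
Log2 fold change (bars are SE) of digenic against wild-type kidneys at P3 and P12 for the 14 listed genes of the class II interval, by distance of the gene's midpoint from the start of H2-Oa in kb (circles, class II set; diamonds, other genes). H2-Oa and Brd2 lie between −0.097 and 0.51 and the other 12 genes above 1.

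Interferon response genes were also called higher in digenic kidneys at P3 and P12, though not in step with Cd74 in every library. Of 21 interferon gamma response genes, 10 were called higher at P3 and 16 at P12, none lower, with medians of 3.50 and 2.82. Of 16 type I interferon response genes, 14 were called higher at P3, such as Ifit1 (5.99-fold, adjusted p = 0.0047), and 8 higher and 1 lower at P12. For all genes tested the share called higher was 2.09% at P3 and 12% at P12. Their summed levels were 371 to 5053 CPM (interferon gamma list) and 236 to 612 CPM (type I list) in P3 digenic kidneys, against 192 to 203 CPM and 136 to 149 CPM in wild type. In P12 digenic kidneys the sums were 386 to 5127 CPM and 207 to 466 CPM, against 225 to 371 CPM and 158 to 186 CPM in wild type. Without the 2 libraries whose headers differ, the P12 counts of genes called higher were 10 and 5. Without the libraries with adrenal transcripts, the P3 counts were 20 and 15. That setting leaves digenic replicate 1 alone at P12, with median log2 changes of 3.88 (interferon gamma list) and 1.96 (type I list). Several of these genes are themselves in the class I or regulator lists.

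Markers of the cells that make class II also moved. Of all genes tested, 0.671% were called in either direction at P0, and 2.09% were called higher at P3 and 12% at P12. Genes called lower at P12 are part of the total given with the settings below. Of 18 macrophage markers, 1 was called higher at P0, 4 at P3 and 17 at P12 (1 lower), and their summed level was 548 to 1401 CPM in P12 digenic kidneys against 267 to 319 CPM in wild type. The leukocyte antigen Ptprc (CD45) stood at 35.9, 15.9 and 32.2 CPM against 9.70, 9.63 and 9.76 CPM, and was called with the 7 others of the pan-leukocyte list, whose sum was 144 to 322 CPM against 74.9 to 90.8 CPM. All 8 neutrophil markers were called, from a summed 3.82 to 8.74 CPM to 14.4 to 112 CPM. At P3 the macrophage sum was 351 to 565 CPM against 248 to 290 CPM and the pan-leukocyte sum 96.9 to 152 CPM against 88.2 to 91.9 CPM. In P3 digenic replicates 1, 2 and 3 the log2 difference from the wild-type mean was 3.69, 4.06 and −0.49 for Cd74 and 0.75, 1.10 and 0.41 for the mean of the macrophage markers. At P0 the one called was Csf1r, the receptor for macrophage colony-stimulating factor (1.92-fold, adjusted p = 0.0238), at 109.8 to 121 CPM against 51.9 to 75.4 CPM. The mean of the 18 macrophage markers did not follow it. Its log2 difference from wild type was −0.049, 0.041 and −0.27 in P0 digenic replicates 1, 2 and 3. For the pan-leukocyte list the difference was −0.11, −0.35 and −0.45. Kidney and endothelial markers moved too at P12: of 12 kidney markers 6 were called lower, such as Umod (0.58-fold) and Slc34a1 (0.51-fold), and 2 higher, Aqp2 (6.01-fold) and Pax8 (1.38-fold), and 6 of 8 endothelial markers were called lower, such as Emcn (0.54-fold). Without the libraries whose headers differ, 4 kidney markers were called higher and 5 lower at P12, and 5 endothelial markers lower. The part of these shifts in the class II result was not tested.

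Dendritic, B and T cell markers moved in both directions. The same shares of all genes tested stand beside them: 0.671% in either direction at P0, 2.09% higher at P3 and 12% higher at P12. Genes called lower at P12 are again part of the total given below. Of 12 dendritic cell markers, 1 was called higher at P0, none was called at P3 and 5 higher and 2 lower at P12, with sums of 993 to 1179 CPM against 851 to 866 CPM. Without the libraries whose headers differ, 4 were called higher and none lower at P12. Itgax (5.73-fold, adjusted p = 0.0011) and Clec10a (3.86-fold, adjusted p = 0.0053) rose. The next markers of this list were picked after their values were seen. At P12 Flt3 stood at 0.60, 0.46 and 1.06 CPM against 0.47, 0.43 and 0.48 CPM. Zbtb46 stood at 16.8, 23.8 and 20.9 CPM against 30.5, 25.9 and 27.8 CPM, below all wild-type kidneys. Irf8 ran higher, at 20.9 to 61.4 CPM against 18.9 to 25.1 CPM, and Clec9a overlapped, at 1.24 to 1.95 CPM against 1.31 to 1.96 CPM. The part of other cells in these levels was not tested. Xcr1, Cd209a and Ccr7 are among those not analysed here. Of 8 B cell markers, 3 were called higher and 2 lower at P12 (2 and 1 without those libraries), with sums of 20.5 to 29.2 CPM against 17.6 to 24.4 CPM over all libraries. Cd22 (7.29-fold, adjusted p = 3.2e-04), Cd79b (1.89-fold, adjusted p = 0.0024) and Bank1 (1.94-fold, adjusted p = 0.0320) rose, while the B cell receptor gene Cd79a fell, to 0.18 to 0.42 CPM against 1.04 to 1.64 CPM (adjusted p = 0.0109). At P3 Cr2 was the one B cell marker called, lower (0.37-fold, adjusted p = 0.0446). Of 5 T cell markers, 3 were called higher at P12, Cd4, Trac (3.16-fold, adjusted p = 0.0064) and Lck (1.82-fold, adjusted p = 0.0224), and at P3 Cd8a was called lower (0.28-fold, adjusted p = 0.0044).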

How the data were processed

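RNA from 36 whole kidneys was sequenced as paired-end reads. Per the submitters' processing notes and the design text, reads were mapped to mm10 with TopHat2 and Bowtie in MAP-RSeq 2.1.0, and featureCounts and edgeR are named; the sources used here do not give the other versions. The authors deposited whole-number counts per gene, with positions and gene length, per the file headers. Samples were grouped by their labels.

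Counts were normalized with TMM, filtered with filterByExpr and tested with edgeR 4.0.16 (robust quasi-likelihood; limma 3.58.1, R 4.3.3) within each age (12 libraries, 8 residual degrees of freedom) or over all 36 for ages. A gene was called when its p, adjusted over all tested genes by the Benjamini-Hochberg method, was under 0.05. The SE is the log2 change divided by the root of F. Log2 CPM used a prior count of 2. DESeq2 1.42.0 was an alternative; scripts were tested on simulated counts. Named genes are the set itself, at most 4 called genes of each list and comparison, Rfx5, Nlrc5 and Irf1, and the 8 most similar profiles, with further markers named as chosen later. A further gene that this rule names is not reported here. The set and lists were chosen with earlier results of these data known. Figures used Python 3.11.15 and matplotlib 3.10.9.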

Additional observations from a re-analysis of the deposited data

Results flagged for a closer look

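At P12 the digenic difference from the sum of both single-mutant differences passed the test (edgeR, log2 scale) for Cd74 (5.29), H2-Aa (5.55), H2-Ab1 (4.89), H2-Eb1 (4.50), H2-DMa (3.13) and H2-DMb2 (4.34), that is, the effect of one mutation differed with the presence of the other. The difference between digenic and wild-type kidneys also differed between ages. It was larger at P3 than at P0 for Cd74 (4.03), H2-Aa (4.55) and H2-Eb1 (3.54), and larger at P12 than at P3 for H2-DMb2 (2.82). From P0 to P12 it grew for Cd74 (5.76), H2-Aa (6.20), H2-Ab1 (4.97), H2-Eb1 (4.79), H2-DMa (3.31), H2-DMb1 (1.52), H2-DMb2 (4.84) and Ciita (3.71). H2-Oa passed none of these tests. Several of these calls depended on single libraries. Leaving out 1 library at a time gave 1 to 8 called in the P12 interaction, 0 to 8 from P0 to P3, 0 to 3 from P3 to P12 and 6 to 8 from P0 to P12. In P3 digenic replicate 3, Cd74 (−0.49), H2-Aa (−0.51) and H2-Eb1 (−0.64) lay below the wild-type mean on the log2 scale.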

How the results depend on the processing

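The number of the 9 genes called in each of 24 comparisons was recomputed under up to 9 other settings, where each applied, 2 of them (without the libraries with adrenal transcripts, and without those whose headers differ) chosen after seeing the data, and without each library in turn. DESeq2 size factors and no filter on low counts moved no count beyond 1.5 times. Digenic against wild type at P3 (1 called) gave 0 with a replicate block, with sex as a term and in a fit of only the groups compared, 8 without the libraries with adrenal transcripts and with DESeq2, and 7 when all 36 libraries were fitted together. Against Pkd1-RC/RC at P3 (0 called) the counts were 8, 6 and 6 without those libraries, with all 36 and with DESeq2. Against Pkhd1-/- at P3 (1 called) they were 0 with the block, sex or only the groups compared, 8 without those libraries and with DESeq2, and 7 with all 36. The interaction at P3 (0 called) gave 7 without those libraries and 1 with DESeq2. Fits of only the groups compared gave 4 at P12 against wild type and 3 against Pkd1-RC/RC. At P0 digenic against wild type gave 2 with sex as a term and 3 with DESeq2, and against Pkhd1-/- 2 with DESeq2. Wild type from P0 to P3 gave 1 and from P3 to P12 5 without the libraries with adrenal transcripts, and 5 in the fit of only the groups compared for the latter. The growth of the digenic effect from P0 to P3 (3 called) gave 1 with the block or sex, 8 without those libraries, 5 with DESeq2 and 0 in the groups alone; from P3 to P12 (1 called) 6 without those libraries, 0 without the libraries whose headers differ, 2 with DESeq2 and 0 in the groups alone. The cause of these moves was not tested. Over all genes, digenic against wild type at P3 called 487 genes, against 100 with sex as a term, 285 with the block, 59 in the groups alone and 1118 with DESeq2; at P12 it called 4141, against 2371 in the groups alone. Leaving out 1 library at a time gave 0 to 8 in the 3 P3 digenic comparisons, in the P3 interaction and in the growth from P0 to P3, 6 to 8 at P12 against wild type, 1 to 8 in the P12 interaction, 1 to 2 and 2 to 4 in wild type from P3 and from P0 to P12, and 0 to 3 in the growth from P3 to P12. With the H2-DMb genes summed, the log2 change from P0 to P12 in wild type was 0.51 (adjusted p = 0.225) in place of the fall of H2-DMb2.

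Replicate numbers do not pair the samples: deviations correlated above 0.1 in 12 of 54 pairs, and 11 of 36 libraries matched their own number best. With the number as a replicate block, 7 of 9 were called at P12 against wild type, Ciita being the one lost, and counts in 21 of 24 comparisons stayed within 1.5 times. With 3 kidneys per group and a 9.63-fold range of Cd74 among P12 digenic kidneys, the spread between libraries limits the precision of these changes. Depth limits that of H2-Oa, counted 4 to 55 times.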
